A study of Mus musculus with 4 samples.

Results

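Chemokines, interleukins and their receptors were taken as every gene symbol of the authors' table that starts with Ccl, Cxcl, Ccr, Cxcr or Il followed by a digit, which gave 68 of 17746 symbols. They comprised 13 CC ligands, 10 CXC ligands, 7 chemokine receptors, 10 interleukin ligands, 24 interleukin receptor chains and 4 soluble antagonists or other genes. RNA was sequenced from live EpCAM-positive, RFP-positive cells sorted from spontaneous lung tumours of mice with floxed Rb1 and Trp53 alleles (Rb1fl/fl; Trp53fl/fl), a model of small cell lung cancer that both groups share. All mice also carried the autophagy reporter GFP-LC3-RFP-LC3ΔG, a probe whose GFP part is degraded by autophagy while its RFP part stays. A last gate split the cells by GFP. Of the GFP-positive cells there are replicates 1 and 2, called P1 and P2 here, and of the GFP-negative cells replicates 1 and 2, called N1 and N2. The labels used here give no age, strain or Cre driver, and do not say whether replicates are separate animals, so the p-values measure only the spread between these libraries. The sample titles call the GFP-positive libraries high in autophagic flux and the series' design text calls the GFP-negative cells high, so groups are named by GFP alone. A log2 change below 0 means a lower level in the GFP-negative libraries. Values written as pairs give P1 and P2 against N1 and N2.

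Chemokines are small secreted proteins that draw cells along a gradient and act through receptors that span the membrane and couple to G proteins. CC ligands mainly act on monocytes, macrophages and lymphocytes, and several CXC ligands act on neutrophils. Interleukins are secreted signals between immune and epithelial cells, and most of their receptors are built of several chains, some shared between interleukins. In the lung, macrophages and epithelial cells are known sources of many of these ligands.

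Total counts were 51994432 to 73997175 per library. GFP-positive replicate 1 (P1) stood apart, with counts for 6063 symbols against 15710 to 17617 in the other libraries. Markers of other cell types were present despite the EpCAM gate. The summed level of 19 macrophage markers was 119343 CPM in P1, 62883 in P2, 1186 in N1 and 19835 in N2, where CPM are counts scaled to library size with TMM factors. Of these 19, 2 were at 0 counts in P1 and 2 in N2. For 11 neutrophil markers the sums were 194 and 706 against 41 and 103 CPM, and 10 of the 11 were at 0 counts in P1. For 14 T and NK cell markers they were 434 and 245 against 51 and 92 CPM, with 12 at 0 counts in P1. The 13 neuroendocrine tumour markers summed to 4045 and 1420 against 5617 and 2238 CPM, with 3 at 0 counts in P1. Sums of 4 hepatocyte markers were 27262 and 159 against 24 and 319 CPM, and of 6 erythroid markers 45562 and 14336 against 1573 and 5395 CPM. The part of these cell types in the results on chemokines and interleukins was not tested, and in sorted bulk RNA fewer cells of a type and less RNA per cell cannot be told apart.

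The genes Cxcl1, Cxcl2 and Cxcl3 lie near each other on chromosome 5 and encode related ligands that attract neutrophils. Their promoters are shown because the 3 genes share an NF-kB type motif and yet differed in level in these libraries. Each stretch runs from 150 to 31 bases before the RefSeq transcription start (build GRCm38.p6, the mm10 assembly, plus strand), and capitals mark the motif (3 G, 2 bases of any kind, 3 T, 2 C) on either strand. The stretches lie at chr5:90891095-90891214 for Cxcl1, chr5:90903749-90903868 for Cxcl2 and chr5:90785951-90786070 for Cxcl3.
Cxcl1: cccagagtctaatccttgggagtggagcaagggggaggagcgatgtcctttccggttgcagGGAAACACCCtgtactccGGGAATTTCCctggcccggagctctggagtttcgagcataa
Cxcl2: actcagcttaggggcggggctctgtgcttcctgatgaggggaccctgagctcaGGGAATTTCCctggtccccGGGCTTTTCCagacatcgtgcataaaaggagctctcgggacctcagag
Cxcl3: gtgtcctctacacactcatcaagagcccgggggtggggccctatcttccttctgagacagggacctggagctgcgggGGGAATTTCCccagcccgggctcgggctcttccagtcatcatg
All 3 hold GGGAATTTCC, starting 71, 97 and 73 bases before the start of Cxcl1, Cxcl2 and Cxcl3. Cxcl1 has a second match on the other strand (GGAAACACCC, 89 bases before the start) and Cxcl2 a second on the same strand (GGGCTTTTCC, 78 bases before). None of the 5 matches overlapped a match to the 3 other kinds of motif searched, TGANTCA, TTCNNNGAA and TATAAA. In the 250 bases before the start, on both strands, the marked motif was found in 464 of 32851 windows of all genes (1.41%). It was in 7 of the 65 windows of the 52 members that had any (Ccl9, Cxcl1, Cxcl2, Cxcl3, Il16, Il17rc and Il1rn). A wider form (3 G, 3 bases of any kind, 2 T, 2 C), which contains it, was in 4.65% of all windows and in 10 of the 65 member windows. TGANTCA, of the AP-1 type, was in 6.75% of all windows and 8 member windows. TTCNNNGAA, of the STAT type, was in 7.02% and 7, and TATAAA in 12.4% and 12. These matches describe letters only and were chosen for display after the levels had been seen.

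The libraries differed first in which ligands and receptors were present. Taking at least 10 counts as detected, 24 of 68 members were detected in P1, 62 in P2, 65 in N1 and 62 in N2. Over all 17746 symbols the shares were 23.1%, 86.2%, 92.8% and 82.6%, against 35.3%, 91.2%, 95.6% and 91.2% of the members. The GFP groups overlapped in this count: P1 had the fewest members and P2 as many as N2. In P1, 41 members had 0 counts, where a limit of 3 counts equals 0.080 CPM (for counting error only), and 33 of these had counts in all 3 other libraries. At least 10 counts in every library were found for 23 members (33.8%), against 21.5% of all symbols.

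**Figure D1:**
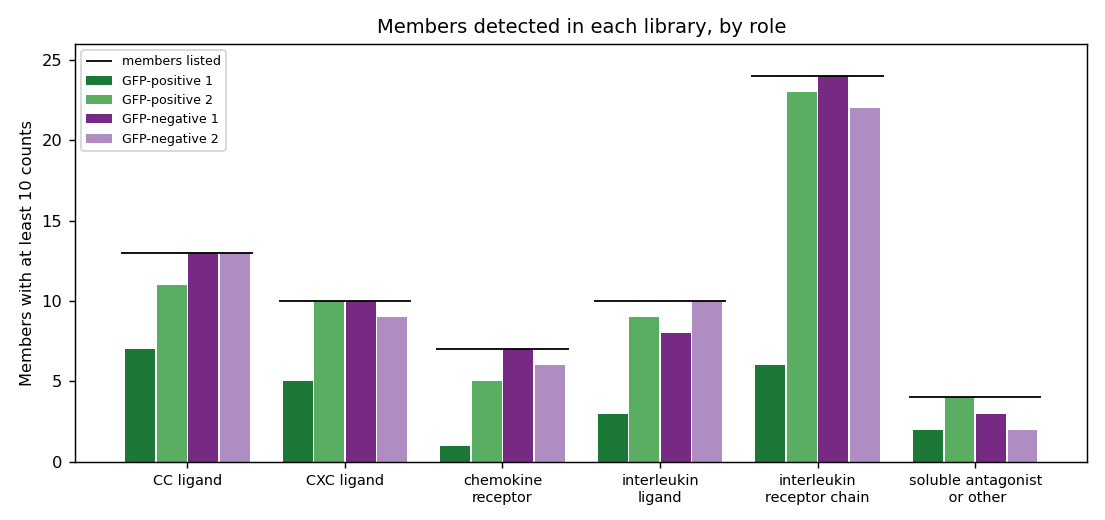
Number of members with at least 10 counts (vertical axis) by role (horizontal axis) in each of the 4 libraries (bars), with black lines at the number listed in the table. GFP-positive replicate 1 reached 7 of 13 CC ligands, 1 of 7 chemokine receptors and 6 of 24 interleukin receptor chains, while GFP-negative replicate 1 reached all members of those 3 roles.

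In depth of signal the order was another one. Members took 1.01% of all counts in P1, 1.17% in P2, 0.123% in N1 and 0.776% in N2. N1 therefore detected the most members at the lowest levels, with a single gene above 100 FPKM (the deposited values, scaled by gene length and library size), Cxcl13. In P1, 12 of its few detected members lay above 100 FPKM, in P2 there were 15, and in N2 there were 8.

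edgeR's quasi-likelihood test, fitted on 16301 genes of which 66 were members, called 0 members at a Benjamini-Hochberg adjusted p under 0.05, against 0.0982% of all genes (0.092% lower and 0.00613% higher in the GFP-negative libraries). At an unadjusted p under 0.05 there were 4 members (Cxcl2, Ccr1, Il1rn and Il17b), and 3.1% of all genes. Il17b had 0 counts in both GFP-positive libraries and passed the filter only through the GFP-negative ones, so its p is no support. DESeq2's Wald test also called 0 members, with 7 at an unadjusted p under 0.05, as had 1159 of 16301 genes. limma called 0 too, with 8 members at an unadjusted p under 0.05 in either fit, beside 324 genes on log2(FPKM + 1) and 652 on log2(FPKM + 0.1). A fitted change below 0 was found for 44 of the 66 members, against 31.9% of all tested genes, and the median log2 change was -0.78 for members and 0.91 for all tested genes. That majority was lost in some fits: 26 of 66 members lay below 0 with the replicate block, 26 with limma on log2(FPKM + 0.1), 33 with limma on log2(FPKM + 1) and 20 of 67 without P2. Among genes with counts in all 4 libraries, the median was -2.14 for 24 members and -0.13 for 5492 genes, and 22 of the 24 lay below 0, against 53.3%. By role, the median log2 change was -0.04 for 13 CC ligands, -1.33 for 10 CXC ligands, -0.72 for 6 chemokine receptors, -1.83 for 10 interleukin ligands, -0.25 for 24 interleukin receptor chains and -3.61 for 3 soluble antagonists or others. Leaving out 1 library changed the count of calls. Of 67 tested members, 26 (38.8%) passed without P2, where 45.2% of all genes passed, and 2 of 68 passed without N2, where 0.351% of all genes did. In each such fit 1 group holds a lone library (P1 or N1 in these), which is assumed to vary like the 2 libraries of the other group.

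**Figure D2:**
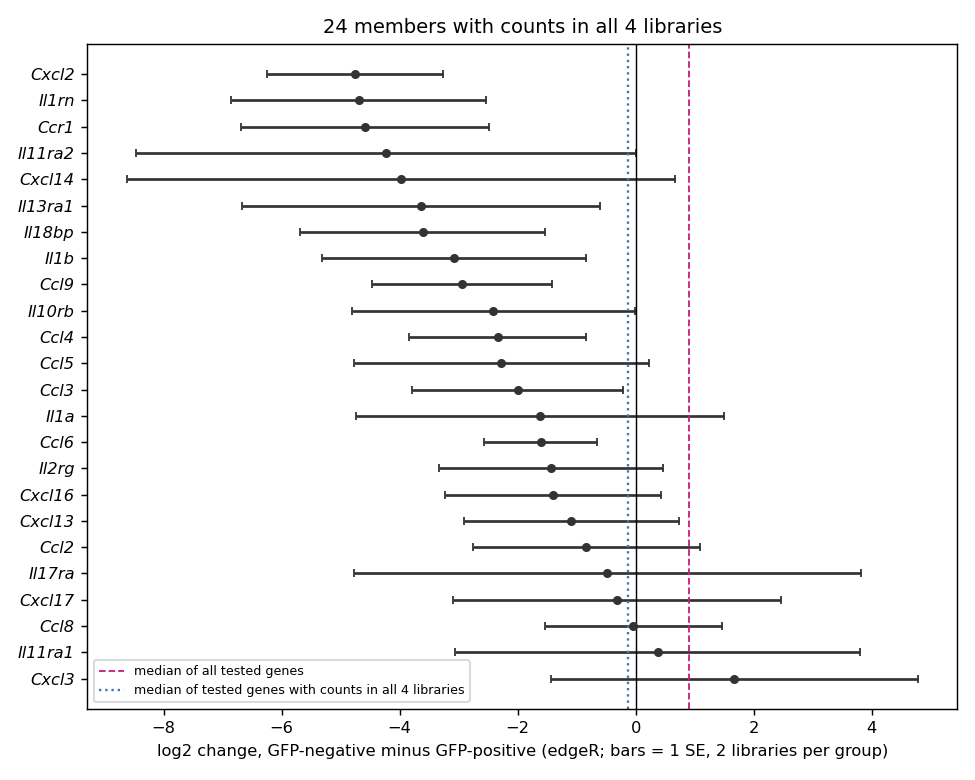
Fitted log2 change, GFP-negative minus GFP-positive (horizontal axis), of the 24 members with counts in all 4 libraries, with bars of 1 SE (edgeR, 2 libraries per group) and lines at the medians of all tested genes (0.91) and of those with counts in all 4 libraries (-0.13). Cxcl2, Il1rn and Ccr1 lie farthest below 0, most bars are wider than 1 log2 unit on each side, and Il11ra1 and Cxcl3 are the 2 members above 0.

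The GFP groups did not overlap for 24 of the 66 tested members, and for 31.8% of all tested genes. N1 and N2 were both lower than P1 and P2 for 13 members (19.7%), against 6.63% of all tested genes. They were Ccl3, Ccl5, Ccl9, Cxcl2, Cxcl14, Ccr1, Il1b, Il15, Il2rg, Il10rb, Il13ra1, Il1rn and Il18bp. The opposite order was found for 11 members (16.7%), against 25.2% of all tested genes. These 11, Ccl17, Ccl22, Ccl25, Ccr2, Ccr6, Il15ra, Il17b, Il17rb, Il1r1, Il1rap and Il6st, were all at 0 counts in P1. Without that library 41 of all 68 members, tested or not, were lower and 13 higher in both GFP-negative libraries. Of all tested genes 27.9% and 28.9% were. Of the 19 macrophage markers, 13 were likewise lower in both GFP-negative libraries and 0 higher.

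**Figure D3:**
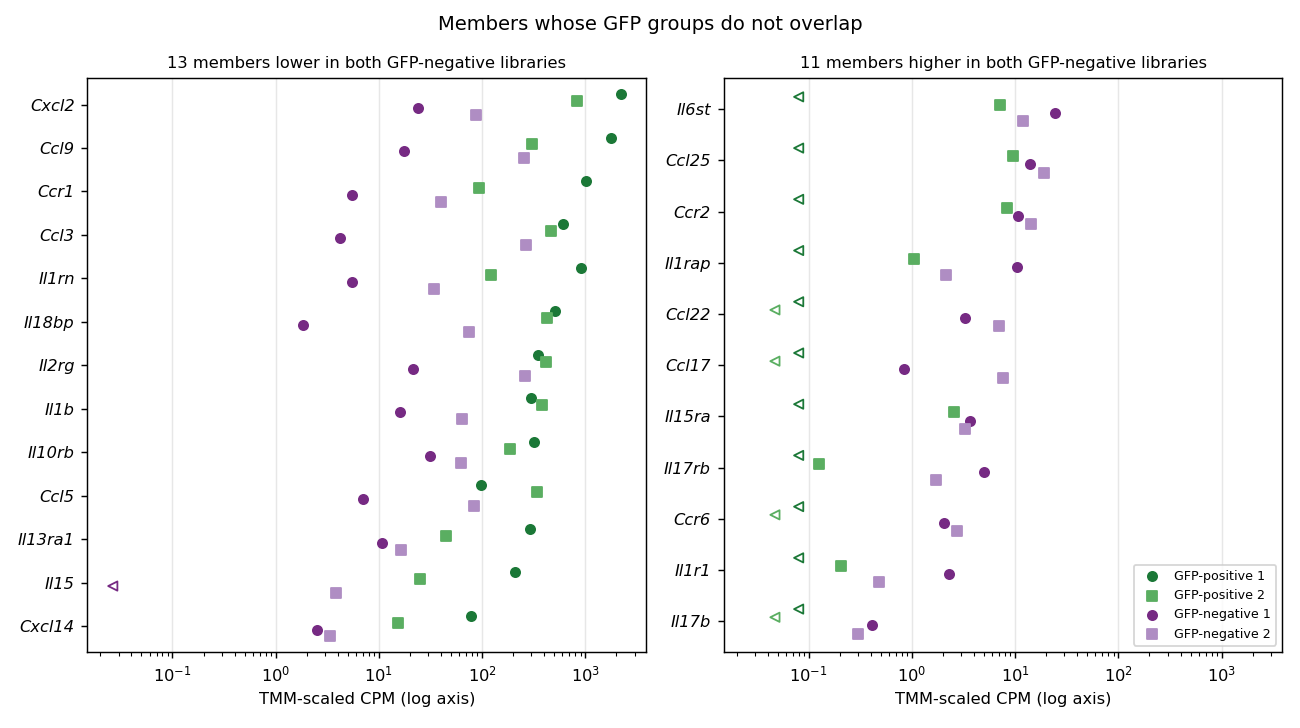
TMM-scaled CPM (horizontal log axis) of the 24 members whose GFP groups do not overlap, 1 point per library, with open triangles for 0 counts drawn at the level of 3 counts. On the left the green points (GFP-positive) lie right of the purple points (GFP-negative) for 13 members, and on the right all 11 members have a triangle for GFP-positive replicate 1.

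Among the CC ligands, 9 of the 13 come from a cluster on chromosome 11 and made up 89.7% to 100% of the summed FPKM of CC ligands in each library. On the centromere-proximal side lie Ccl2, Ccl7, Ccl12 and Ccl8 (chr11:82035571-82037453 for Ccl2, mm10). Of these, Ccl2, Ccl7 and Ccl12 encode attractants of monocytes. Farther along lie Ccl5, Ccl9, Ccl6, Ccl3 and Ccl4 (chr11:83662584-83664683 for Ccl4), which include the macrophage inflammatory proteins. The first 4 genes summed to 276.6 and 3768 against 27.12 and 4578 FPKM. The other 5 summed to 2460 and 3809 against 66.54 and 1720 FPKM. The first sum was 0.112 times the second in P1, 0.989 times in P2, 0.408 times in N1 and 2.66 times in N2. The groups overlapped in this ratio.

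**Figure D4:**
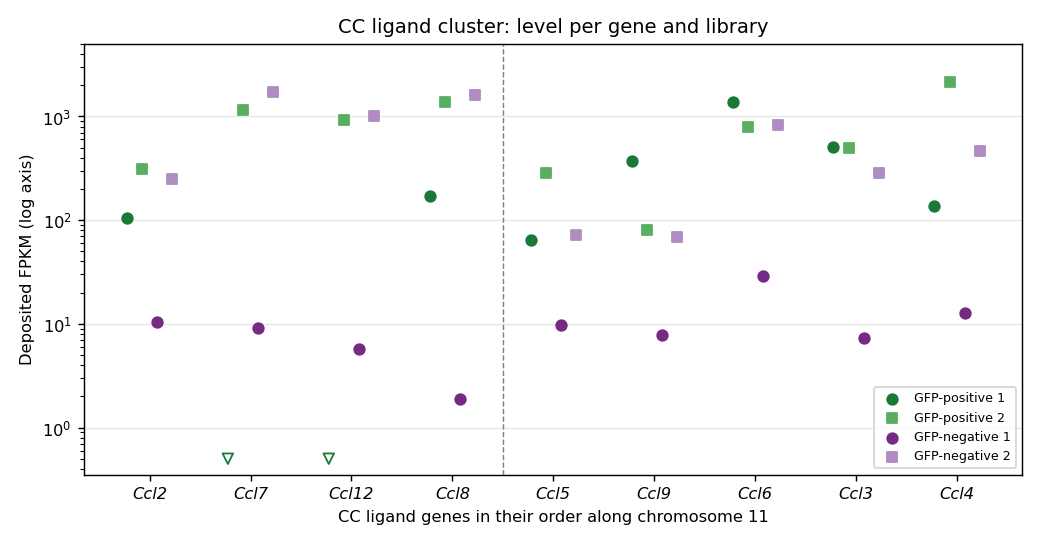
Deposited FPKM (vertical log axis) of 9 CC ligand genes in chromosomal order, 1 point per library, with open triangles at the bottom for genes listed at 0 and a dashed line between the 2 sets. The squares of both second replicates lie close together and high for Ccl7, Ccl12 and Ccl8, while GFP-negative replicate 1 is low throughout and GFP-positive replicate 1 is high for Ccl6, Ccl9 and Ccl3.

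Ccl7, a monocyte attractant, had 0 CPM in P1, 1133 in P2, 5.37 in N1 and 1653 in N2. Ccl12 had 0 and 609 against 2.27 and 653 CPM. Ccl8 had 135 and 876 against 0.723 and 985 CPM. In these 3 genes the second replicates of both groups were high and alike, and the groups overlapped. N2 exceeded N1 by 308-fold for Ccl7, 287-fold for Ccl12 and 1360-fold for Ccl8. Ccl2, the best known monocyte attractant, was present in every library, at 186 and 439 against 8.82 and 341 CPM, with a log2 change of -0.84 ± 1.92 (here and below ± SE over 2 libraries a group; edgeR adjusted p = 1.0).

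Ccl6 and Ccl9 encode CC ligands that are abundant in mouse myeloid cells and act on Ccr1. Ccl6 was at 3828 CPM in P1, 1749 in P2, 38.5 in N1 and 1790 in N2. Its groups overlapped because N2 was as high as P2, and the log2 change was -1.61 ± 0.96 (edgeR adjusted p = 1.0). Without N2 it was -6.10, with N1 as the lone GFP-negative library, so its size rests on which GFP-negative libraries are kept. Ccl9 was at 1765 and 305 against 17.4 and 252 CPM, a log2 change of -2.94 ± 1.52, and of -1.18 without P1 and -5.79 without N2. Its groups did not overlap, but N2 was close to P2.

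Ccl3 and Ccl4 encode macrophage inflammatory proteins, of which Ccl3 acts on Ccr1. Ccl3 was at 601 and 467 against 4.19 and 264 CPM (log2 change -2.00 ± 1.79), and the change was -6.93 without N2 and -1.02 without N1. Ccl4 was at 140 and 1758 against 6.19 and 369 CPM (log2 change -2.34 ± 1.5), so N2 exceeded P1, and the change was 0.42 without P2 and -7.27 without N2. Per length, Ccl4 was 0.27 times Ccl3 in P1 and 4.37 times in P2, against 1.72 times in N1 and 1.62 times in N2. Ccl5, a ligand made by T cells and other activated cells, was at 96.5 and 338 against 6.95 and 82.6 CPM (log2 change -2.28 ± 2.50), and -1.11 without P2 and -4.95 without N2.

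The remaining CC ligands were lower. Ccl17 and Ccl22, ligands of dendritic cells and macrophages that attract T cells, had 0 counts in both GFP-positive libraries. Ccl17 had 0.846 CPM in N1 and 7.64 in N2, a mean at least 66.8-fold higher, with 3 counts per library as the limit averaged over the group. Ccl22 had 3.28 CPM in N1 and 7.01 in N2, at least 81-fold higher. Both entered the test only through the GFP-negative libraries, and neither passed it (edgeR adjusted p = 1.0). The folds are limits for counting error only, and P1 had 0 counts for 41 of the 68 members. The 7 dendritic cell markers summed to 15953 and 17853 against 721 and 10568 CPM, nearly all of it from the antigen presentation genes H2-Ab1 and Cd74. Of the other 5, Zbtb46, Cd209a and Siglech were higher in both GFP-negative libraries. Zbtb46 was at 0.133 and 2.49 against 24.5 and 16.2 CPM, and Cd209a and Siglech had 0 counts in P1 and P2. For Itgax, at 0 and 16.1 against 8.3 and 2.43 CPM, the groups overlapped. They overlapped too for Batf3, at 0 and 19.5 against 3.2 and 37.3 CPM. The part of these cells was not tested. Ccl25, a ligand known from thymus and gut, had 0 and 9.60 against 13.8 and 18.9 CPM. Ccl27a, known from skin, had 0 and 30.5 against 7.39 and 103 CPM. In the annotation Ccl27a (chr4:41769467-41774247) overlaps Il11ra1 (chr4:41699989-41769474) by only a few bases at the gene ends. Without strand in the kit, reads from that short overlap cannot be told apart.

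Of the CXC ligands, Cxcl2 had the smallest p of all members. It was at 2206 CPM in P1, 821 in P2, 23.9 in N1 and 87.9 in N2. Every GFP-positive value was more than 9-fold above every GFP-negative value, and within replicate numbers the ratios were 92.2 and 9.35. The log2 change was -4.76 ± 1.49 (edgeR unadjusted p = 0.00138, adjusted p = 0.897). It stayed below 0 when each library was left out, from -3.88 without P1 to -5.90 without N2. Without N2 the lone GFP-negative library is N1, which has the lowest share of counts in members.

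The neighbours of Cxcl2 with the shared promoter letters had other levels. Cxcl1 had 0 and 75.6 against 10.7 and 21 CPM. Cxcl3 had 0.213 and 0.267 against 1.36 and 0.180 CPM, which are 8, 17, 154 and 12 counts, and a log2 change of 1.67 ± 3.11. Cxcl2 was thus high in both GFP-positive libraries, Cxcl1 absent from the first of them, and Cxcl3 near the detection limit in 3 libraries.

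Cxcl13, which attracts B cells, was abundant in every library. It was at 656 CPM in P1, 143 in P2, 284 in N1 and 91.4 in N2, with a log2 change of -1.09 ± 1.82 that was 0.38 without P1. It made up 88.5% of the summed CXC ligand FPKM in N1, at 334 FPKM. The first replicate of each group was higher than the second, and the groups overlapped. The 9 B and plasma cell markers summed to 1890 and 6641 against 2997 and 20162 CPM, with 7 at 0 counts in P1. Most of each sum came from Igkc, at 1890 and 5238 against 2034 and 18102 CPM. The part of B and plasma cells was not tested.

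Cxcl14, an epithelial ligand, was at 77.5 and 15.2 against 2.49 and 3.36 CPM (log2 change -3.98 ± 4.64), and both GFP-negative libraries were below both GFP-positive libraries. Cxcl16, a membrane-bound ligand also known as a scavenger receptor, was at 164 and 684 against 12.9 and 309 CPM (log2 change -1.40 ± 1.83). Cxcl17, a ligand of mucosal epithelium, was at 84.1 and 107 against 1.82 and 152 CPM (log2 change -0.32 ± 2.78). Cxcl10, which interferon induces, had 0 and 258 against 12.3 and 67.4 CPM. Cxcl12, the ligand of Cxcr4, and Cxcl15, a ligand of lung epithelium, did not exceed 7.87 CPM in any library. For Cxcl16 and Cxcl17, N1 was the low library. The change of Cxcl16 was -0.03 without P2, -0.46 without N1 and -5.03 without N2, that of Cxcl17 0.66 without N1 and -5.67 without N2, and that of Cxcl14 -2.38 without P1. The sum of the 5 club cell markers was lowest in N1 too, at 3952 and 5641 against 399 and 8410 CPM. Of these markers Bpifa1 was lowest in P1, at 0.107 and 2845 against 17.8 and 5331 CPM, and the others in N1. The 7 alveolar type 2 markers summed to 147 and 319 against 113 and 2533 CPM. The part of these cells was not tested.

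Chemokine receptors summed to 229 FPKM in P1, 54.17 in P2, 20.2 in N1 and 27.17 in N2, below the sum of either class of ligand in the same library. Ccr1, the receptor of Ccl3, Ccl5, Ccl6 and Ccl9, was at 1004 CPM in P1, 92.8 in P2, 5.50 in N1 and 40.1 in N2. The groups did not overlap, and the log2 change was -4.59 ± 2.1 (edgeR unadjusted p = 0.029, adjusted p = 1.0), and -2.03 without P1. Without P2 the change was -5.46, with P1 as the lone GFP-positive library. At 229 FPKM in P1, Ccr1 was the only receptor there with at least 10 counts.

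The other 6 chemokine receptors had 0 counts in P1, except Ccr9, a receptor of gut-homing T cells, with 3 counts. Ccr9 had 0 counts in P2, 225 in N1 and 5 in N2. Ccr2, the receptor of Ccl2, Ccl7 and Ccl12, had 8.35 CPM in P2, 10.7 in N1 and 14.3 in N2, so the 3 libraries were alike. Ccr7, a receptor of dendritic cells and T cells that move to lymph nodes, had 48.6, 18.3 and 27.6 CPM in the same 3 libraries. Ccr6, the receptor of B cells and some T cells, had 0 counts in both GFP-positive libraries but 2.06 CPM in N1 and 2.73 in N2. Its mean was at least 37.8-fold higher, a limit for counting error only, and Ccr6 entered the test only through the GFP-negative libraries. Cxcr4 had 6.42 CPM in P2, 0.987 in N1 and 1.5 in N2.

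Known ligand and receptor pairs were counted where every part had at least 10 counts. Of 17 such pairs among the members, 4 were complete in P1, 16 in P2, 16 in N1 and 15 in N2. The 4 in P1 all used Ccr1. In that library 11 of the 17 pairs had their ligand, so for 7 of these a receptor chain was below 10 counts. Libraries hold RNA of many cells, so a complete pair does not place ligand and receptor in the same or in different cells.

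Within the interleukin-1 system agonists and antagonist were present in every library and the receptor was not. Il1b, the main inflammatory agonist, was at 297 CPM in P1, 379 in P2, 16 in N1 and 63.9 in N2 (log2 change -3.08 ± 2.23, edgeR adjusted p = 1.0). Both GFP-negative libraries were lower, by 18.6-fold within replicate 1 and 5.93-fold within replicate 2. Il1a, the other agonist, was at 5.92 and 203 against 4.99 and 62.6 CPM (log2 change -1.62 ± 3.12), low in the first replicate of both groups. Il1rn, the antagonist that blocks the receptor, was at 897 and 123 against 5.52 and 34.1 CPM, a log2 change of -4.69 ± 2.16 (edgeR unadjusted p = 0.0303, adjusted p = 1.0), and of -2.64 without P1. Without P2 the change of Il1rn was -5.5, with P1 as the lone GFP-positive library.

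Per length, Il1rn was 1.02 times the sum of Il1a and Il1b in P1 and 0.0738, 0.0912 and 0.0944 times in the other 3 libraries. The proportion of antagonist to agonist was therefore alike in 3 libraries and higher in 1, in FPKM of whole genes. The signalling receptor Il1r1 and its partner chain Il1rap had 0 counts in P1 and were low elsewhere, with 0.204 CPM in P2, 2.28 in N1 and 0.481 in N2 for Il1r1 and 1.04, 10.4 and 2.16 CPM for Il1rap. The decoy receptor Il1r2 had 0 and 10.5 against 3.83 and 10.7 CPM. Il1bos, an antisense transcript that overlaps Il1b, had at most 12 counts and was not tested, and without strand its reads cannot be told from those of Il1b.

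Il18, an agonist related to interleukin-1, had 0 and 112 against 1.04 and 26.2 CPM. Il18bp, the secreted protein that binds and blocks it, was at 513 and 428 against 1.83 and 75.1 CPM, a log2 change of -3.61 ± 2.08 (edgeR adjusted p = 1.0), with both GFP-negative libraries lower. Without N2 the change was -7.94 and without N1 -2.65. Per length Il18bp was 1.3, 0.605 and 0.977 times Il18 in P2, N1 and N2, and Il18 was listed at 0 in P1. Il18bp overlaps Numa1 in the annotation, so some reads may be shared.

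Of the other interleukin ligands, Il15, a growth signal of NK and memory T cells, was at 206 CPM in P1, 24.9 in P2, 0 in N1 and 3.86 in N2. Il10, which restrains inflammation, had 0 and 38.0 against 2.42 and 3.65 CPM. Il16, which attracts CD4+ cells, had 0 and 44.2 against 1.15 and 8.25 CPM. Il10 and Il16 were high in P2 alone. Il17b, an epithelial ligand, had 0 counts in both GFP-positive libraries but 47 counts in N1 and 20 in N2, at least 5.63-fold higher in CPM. Il12b, Il17d and Il17f stayed at or under 4.02 CPM in every library.

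The interleukin receptor chains were led by Il2rg, the chain shared by the receptors of several interleukins of lymphocytes. It was at 346 CPM in P1, 414 in P2, 21.3 in N1 and 260 in N2, with a log2 change of -1.43 ± 1.9 and groups that did not overlap. The change was -0.55 without N1 and -4.11 without N2. Its share of the summed interleukin receptor FPKM was 37.6% in P1, 55.6% in P2, 15.6% in N1 and 66.3% in N2. Its partner Il2rb had 0 and 2.15 against 4.05 and 1.79 CPM. Il10rb, shared by the receptors of interleukin-10 and related ligands, was at 315 and 185 against 31.3 and 62.9 CPM (log2 change -2.41 ± 2.39). Il10ra, the chain particular to interleukin-10, had 0 and 46.5 against 10.4 and 1.58 CPM. Il13ra1, part of the receptor of interleukins 4 and 13, was at 288 and 44.6 against 10.6 and 16.2 CPM (log2 change -3.64 ± 3.03, and -1.74 without P1). Il10rb and Il13ra1 were, like Il2rg, below both GFP-positive libraries in both GFP-negative libraries.

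Il6st, the signalling chain of the interleukin-6 family, went the other way, with 0 and 7.11 against 24.3 and 12.0 CPM. Il6ra had 0 and 22.4 against 19.7 and 2.24 CPM, and Il4ra 0 and 55.4 against 19.1 and 7.45 CPM, so N2 was below P2 and N1 for both chains. Il17ra, shared by interleukin-17 receptors, was in all libraries at 31 and 9.27 against 22.4 and 6.53 CPM (log2 change -0.48 ± 4.30). Il21r had 0 and 49.1 against 4.19 and 8.77 CPM, and Il17rb 0 and 0.126 against 5 and 1.70 CPM. Il11ra1 and Il11ra2 are close copies on chromosome 4. Il11ra2 was at 150 and 0.439 against 5.68 and 2.36 CPM and Il11ra1 at 2.08 and 85.9 against 37.5 and 76.1 CPM, so the former was the higher in P1 only, and the split of reads between the copies is uncertain.

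Members with low values not given above were Il4i1, an enzyme gene that interleukin-4 induces, and further receptor chains (Il15ra, Il17rc, Il17re, Il18r1, Il20rb, Il27ra, Il3ra and Il7r). None of these exceeded 13.4 CPM in any library. Only Ccr9 and Il1bos fell below the filter on low counts.

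Genes of the wider system gave 0 calls in 5 lists. In the related chemokine system 0 of 8 tested genes were called. Ccrl2, an atypical receptor that binds the chemoattractant chemerin, was at 809 and 332 against 9.48 and 97.0 CPM, and Pf4, a CXC ligand known from platelets, at 109 and 561 against 6.89 and 257 CPM. Counts of groups that do not overlap stand here beside 6.63% lower and 25.2% higher over all tested genes, of which 0.0982% were called. Of 19 genes of signalling from chemokine receptors, 0 were called, 11 were lower in both GFP-negative libraries and 0 higher, among them Lyn, a kinase of myeloid cells, at 833 and 153 against 17.4 and 7.12 CPM (log2 change -5.33 ± 2.26, edgeR unadjusted p = 0.0186). Of 26 genes from the interleukin-1 receptor to NF-kB, 0 were called, with 5 lower and 2 higher in both GFP-negative libraries. Of 17 genes of the JAK, STAT and SOCS families, 0 were called, with 3 lower and 2 higher. Of 19 tested genes for other cytokines and their receptors, 0 were called and 7 were lower in both GFP-negative libraries, with 1 higher. Tnf was at 571 and 360 against 8.23 and 41.4 CPM and Csf1r, the receptor of macrophage growth factor and also a macrophage marker, at 1852 and 260 against 43.6 and 19.3 CPM (log2 change -5.07 ± 1.73, edgeR unadjusted p = 0.00336, adjusted p = 1.0).

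Libraries were also compared in pairs over members with at least 10 counts in both. From P1 to N1 the level was higher for 1 of 23 members, with a median log2 ratio of -4.72, where 22.2% of all genes were higher and their median was -1.54. From P2 to N2 it was higher for 16 of 57 members, with a median of -1.15, where 49% of all genes were higher and their median was -0.04. From N1 to N2 it was higher for 39 of 60 members, with a median of 0.99, where 49.3% of all genes were higher and their median was -0.04. From P2 to N1 it was higher for 12 of 59 members (median -2.19), and for 50.9% of all genes (median 0.05). From P1 to N2 it was higher for 7 of 24 members (median -2.23), and for 33.9% of all genes (median -1.07). Within the GFP-positive group, P2 was higher than P1 for 10 of 24 members (median -0.57), and for 31.5% of all genes (median -0.97).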

How the data were processed

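Libraries were made from full-length cDNA primed with oligo(dT) and amplified by PCR, per the labels' protocols, which name no strand marking or molecular identifiers. The authors deposited a table with counts and FPKM per library, per the file headers. The tools listed are cutadapt 1.9, HISAT2 2.2.1, StringTie 2.1.6, DESeq2 and edgeR, with build mm10, per the submitters' processing notes. How reads shared by overlapping genes were counted is not given in the sources used here.

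GFP groups came from the sample descriptions. The whole table was fitted in R 4.3.3 by edgeR 4.0.16 with filterByExpr (minimum count 10), TMM factors (0.722 for P1, 0.944 for P2, 1.54 for N1, 0.956 for N2) and group as the only term. p-values were adjusted by Benjamini-Hochberg over 16301 genes, with a threshold of 0.05, and the SE was taken from the log2 change and the F statistic. Alternatives were a replicate block, other filters and scalings, DESeq2 1.42.0, limma 3.58.1 on log2(FPKM + 1) and log2(FPKM + 0.1), and leaving out each library.

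The members and lists were chosen with earlier results of these data known. Members were described in full if called, if they had counts in all 4 libraries, or if they were, within a role, among up to 6 with the highest mean FPKM or up to 2 with the smallest p. Further members, the 17 pairs (from general knowledge) and the motifs were picked after values were seen. All 68 members matched 1 gene in the mm10 annotation, and 29 overlap another gene. The values of 1 member are not reported here. Promoters are from RefSeq, GRCm38.p6. Among the marker lists, 3 macrophage, 3 hepatocyte and 2 erythroid genes were called, all with a fitted change below 0. The neutrophil, T and NK, B and plasma, dendritic, club, alveolar type 2 and neuroendocrine lists gave 0 calls. The 3 hepatocyte genes were high in P1 alone. Alb was at 5080 and 0 against 0.141 and 0.0601 CPM, so its groups overlapped. Apoa2 was at 18132 and 3.09 against 0.352 and 0.481 CPM, and Cyp2e1 at 1970 and 0.816 against 0 and 0 CPM.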

Additional observations from a re-analysis of the deposited data

How the results depend on the processing

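The count of 0 members called held with the replicate number as a block, without a filter, with at least 20 counts required in 2 libraries, with size factors of DESeq2 or upper quartile scaling, with DESeq2's Wald test, with both limma fits and, added after seeing the data, in a fit of only genes with counts in all 4 libraries. With each library left out, 0 to 26 members were called, 0 to 7 lower and 0 to 19 higher, with 1 to 7601 calls over all genes and 0 to 34 calls in the lists of the wider system; the highest counts came without P2, where P1 was the lone GFP-positive sample and is assumed to vary like the GFP-negative libraries. The 16 calls over all genes became 42 with DESeq2's Wald test, 42 with limma on log2(FPKM + 0.1), 5 over genes with counts in all 4 libraries, and 0 with upper quartile scaling, where 1150 genes had an unadjusted p under 0.05; the cause was not tested. With the replicate block 21 genes were called, and the medians were 2.37 for members and 3.92 for all genes, against -0.78 and 0.91. Libraries with the same number deviated from their group means with a correlation of 0.03, and no label pairs them. The members' median lay 1.69 below that of all genes (-1.69), and the difference stayed below 0 in every alternative run, at -0.72 with limma on log2(FPKM + 1) and from -1.92 to -0.54 with each library left out. The median of all genes moved from 0.91 to 1.12 with size factors of DESeq2 and to 0.43 with upper quartile scaling, and that of members to -0.57 and -1.73. The members' own median was above 0 with the block, with limma on log2(FPKM + 0.1) (0.51) and without P2 (9.41).

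Among all 68 members, those lower in every GFP-negative library kept (13 with all) numbered 17 to 41 with each library left out. All tested genes gave 11.5% to 27.9%. Members higher (11 with all) numbered 13 to 38 in the same runs, beside 28.9% to 69.6% of all tested genes. Fitted changes turned in sign for Cxcl3 (-4.12) and Il11ra1 (-1.53) under upper quartile scaling and for Il17ra in limma on log2(FPKM + 1) (0.12) and log2(FPKM + 0.1) (0.08). Upper quartile scaling also lowered the fitted change of every member with counts in all 4 libraries. Examples are Cxcl2 from -4.76 to -11.17, Cxcl13 from -1.09 to -7.83 and Il1a from -1.62 to -3.66. The sizes of the changes given above therefore depend on the scaling. With each library left out the log2 change ran from -5.12 to 0.12 for Ccl2, -7.27 to 0.42 for Ccl4, -9.45 to 1.86 for Ccl8, -2.13 to 0.38 for Cxcl13, -5.67 to 0.66 for Cxcl17, -0.41 to 2.53 for Cxcl3, -0.60 to 4.77 for Il11ra1, -5.22 to 3.18 for Il11ra2, -1.63 to 0.64 for Il17ra and -4.40 to 2.51 for Il1a. Members with fewer than 10 counts in a library count as not detected there at this depth.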
